A study of Orbilia oligospora with 9 samples.

Results

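The genes described here are those of the nematode-trapping fungus Orbilia oligospora (also called Arthrobotrys oligospora) whose protein hits name the vacuole or the vacuolar proton pump. They were chosen from the deposited expression table as loci with a locus tag whose Swiss-Prot text contains "vacuol" or "V-type proton ATPase". Of 117 such loci, those on the KEGG maps of autophagy, mitophagy and endocytosis were left out, 45 in all, as were the targeted gene VPS1 and a pair of other named loci. This left 70 genes of 12901 loci in the table, of which 11144 carry a locus tag. The rule used the annotation text and no measured value, but it was set with earlier results of these data known.

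The fungal vacuole is the acidic compartment in which proteins are broken down and in which amino acids, calcium, metals and polyphosphate are stored. Its acidity comes from the V-type ATPase, a rotary pump in which a cytosolic V1 sector hydrolyses ATP and drives a membrane V0 sector that carries protons, and the proton gradient powers exchangers in the same membrane. Vacuolar enzymes reach it from the Golgi along the vacuolar protein sorting (VPS) route, in which receptors such as Vps10 deliver cargo to endosomes and are returned by the retromer and by tethering complexes. In filamentous fungi vacuoles also take part in hyphal growth and in the breakdown of cell contents during development.

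RNA was extracted from hyphae of the wild-type strain and of mutants grown for 5 days at 28 °C on tryptone yeast glucose agar, and sequenced in 9 libraries. They comprised 3 labelled Aovps1 mutant, 3 labelled Aomdv1 mutant and 3 of the wild type (WT). The sample labels call the mutants Vps1 and Mdv1 knockdowns, whereas the series design writes them as deletion mutants with a Δ. Vps1 is a dynamin-related protein that in yeast acts in vacuolar protein sorting, and Mdv1 is an adaptor that recruits dynamin to mitochondria. The series text speaks of biological replicates without describing their cultures. The p-values below therefore reflect only how these libraries vary, which may be technical.

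Levels are given as FPKM, fragments scaled to gene length and library size, and differences as log2 of FPKM + 1. The estimated depth was 15950000 to 19350000 fragments per library, so that for a vacuolar gene of median span (1846 bp) 29.4 to 35.7 fragments lay behind an FPKM of 1. Library 3 labelled Aomdv1 mutant stood apart from the other 2 of its label (correlation of log2 values across loci down to 0.903), and WT library 3 from the other WT libraries (down to 0.928), whereas the Aovps1-labelled libraries correlated at 0.987 to 0.994. The targeted genes were still present under their own labels. VPS1 (AOL_s00007g394) stood at 44.3, 22.6 and 46.9 FPKM in the Aovps1-labelled libraries, 41.2, 55.1 and 35.7 in the Aomdv1-labelled libraries and 105.4, 72.7 and 83.1 in WT, a fall in the Aovps1-labelled libraries (limma log2 fold change -1.23, adjusted p = 0.0421). That call was lost (adjusted p in parentheses) without Aovps1-labelled libraries 1, 2 and 3 (0.0897, 0.159 and 0.0781), Aomdv1-labelled library 1 (0.0559) and WT libraries 1, 2 and 3 (0.129, 0.091 and 0.0508), and likewise with a replicate block (0.0653). The VPS1 values of the Aomdv1-labelled libraries also lay below all WT values (-0.97, adjusted p = 0.117). MDV1 (AOL_s00097g206) stood at 116.9, 148.5 and 104.7 FPKM in the Aovps1-labelled libraries, 127.0, 117.8 and 82.5 in the Aomdv1-labelled libraries and 133.2, 116.4 and 113.9 in WT, with overlapping groups (-0.17, adjusted p = 0.768 in the Aomdv1-labelled libraries), so the libraries are named by label throughout. For that reason every direction below is a difference between labelled libraries.

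In each mutant most of the vacuolar genes had a positive log2 fold change against WT, by amounts that rarely passed the test. Before any rescaling, most of all tested loci were positive in each mutant too. Log2 fold changes were positive for 79.1% of the tested vacuolar genes and 65.6% of all tested loci for Aovps1. For Aomdv1 the shares were 73.1% and 55.0%. With median-ratio scaling 43 of 67 vacuolar genes were positive for Aovps1 and 42 for Aomdv1. In the Aovps1-labelled libraries 3 of the 67 genes tested rose and 0 fell at a limma adjusted p under 0.05, against 8.61% of all 10318 tested loci that rose and 5.21% that fell. In the Aomdv1-labelled libraries 5 rose and 1 fell, against 5.62% of loci that rose and 4.22% that fell. The share called among the vacuolar genes was thus 4.48% in the Aovps1-labelled libraries, below the 13.8% of all loci, and 8.96% in the Aomdv1-labelled libraries, near the 9.84% of all loci. The 7 genes called in either comparison were the sorting receptor VPS10 and pump subunit A (both labels), pump subunit B, the proteolipid c, the assembly factor RAV2 and a TDA6-like gene (Aomdv1 label), and the aminopeptidase AMPL (Aovps1 label). In bulk RNA, fewer cells of a kind and less RNA per cell cannot be told apart.

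WT means of the 67 genes ran from 1.62 to 360.9 FPKM, with a median of 33.1 where that of all tested loci was 17.5. The median log2 fold change of the 67 genes was 0.52 in the Aovps1-labelled libraries, where that of all tested loci was 0.30, and 0.31 in the Aomdv1-labelled libraries, where that of all loci was 0.08. With the FPKM values rescaled by median ratios the median of all loci moved to -0.01 for Aovps1 and -0.06 for Aomdv1, and the calls became 1 risen and 3 fallen genes for Aovps1 and 2 risen and 2 fallen for Aomdv1. Quantile scaling gave 1 risen and 3 fallen for Aovps1 and 3 risen and 3 fallen for Aomdv1. Of all loci 12.4% were called for Aovps1 with median ratios and 13.2% with quantile scaling, and 10.1% for Aomdv1 with either. Relative to the median of all loci, 45 of the 67 genes were higher in the Aovps1-labelled libraries and 46 of 67 in the Aomdv1-labelled libraries, and with median-ratio scaling 44 were for Aovps1 and 46 for Aomdv1. Without WT library 3 these counts were 35 for Aovps1 and 37 for Aomdv1. Without Aomdv1-labelled library 2 the Aomdv1 count was 34 of 67 and the Aomdv1 median 0.10, where that of all loci was 0.08, and without Aomdv1-labelled library 3 that median was 0.50.

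The summed level of conidial markers also differed between the groups, mainly through 1 gene. Over 9 genes with conidiation, hydrophobin or spore in their protein hits, the summed FPKM was 99.8 to 132.8 in the Aovps1-labelled libraries, 123.0 to 183.8 in the Aomdv1-labelled libraries and 1573.5 to 2198.4 in WT, with 0 to 2 of the 9 listed at 0 in a library. Most of the WT sum was 1 hydrophobin (AOL_s00006g570), a coat protein of aerial spores, at means of 0.17 FPKM in the Aovps1-labelled libraries, 1.03 in the Aomdv1-labelled libraries and 1676.9 in WT. Of the 8 tested, 2 fell for Aovps1 and 1 for Aomdv1, and 0 rose. The 8 did not all share that direction, since 4 of 8 had positive log2 fold changes for Aovps1 (median of the 8 0.03, highest 0.84) and 3 of 8 for Aomdv1 (median -0.54, highest 1.45). Their part in the differences of the vacuolar genes was not tested.

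The spread within groups differed, and the counts moved with the libraries used. The median coefficient of variation of the 67 genes was 10.6% in the Aovps1-labelled libraries, 39.1% in the Aomdv1-labelled libraries and 31.5% in WT. Over all tested loci it was 15.1% for Aovps1, 41.8% for Aomdv1 and 36.0% for WT. Of the 67 genes, 42 had their lowest Aomdv1-labelled value in library 3. Because 1 model over all 9 libraries shares its estimate of the spread, that library also bears on the Aovps1 comparison. Without Aomdv1-labelled library 3, 16 genes rose and 5 fell in the Aovps1-labelled libraries, 31.3% of the 67, when 25.3% of all tested loci were called. The risen ones were then VPS10, AMPL, VPS17, VPS51, VPS52, both VPS9A-like genes, pump subunits A, c and F, the assembly factors RAV1, RAV2 and VPH2, VID27, VHC1 and 1 YVC1-like gene. The fallen ones were VTC4, the second subunit A gene and 3 VCX1-like exchangers. Leaving out WT library 3 gave an Aovps1 count of 11, when 21.1% of all loci were called, and leaving out WT library 1 gave 1, when 8.26% were. It was 0 when WT library 2 or Aovps1-labelled library 1 or 3 was dropped, 1 when Aovps1-labelled library 2 was dropped and 2 when Aomdv1-labelled library 1 was dropped. The all-loci share moved as well, to 5.77% without WT library 2 and 13.1% without Aomdv1-labelled library 1. It was 6.61%, 6.86% and 6.12% without Aovps1-labelled libraries 1, 2 and 3. For Aomdv1 the count of 6 became 7 without Aomdv1-labelled library 3, 3 and 2 without Aomdv1-labelled libraries 1 and 2, 2 when WT library 1 was dropped, 1 when WT library 2 was, and 2, 3 and 3 for Aovps1-labelled libraries 1, 2 and 3. The all-loci share for Aomdv1 was then 8.02%, 8.53% and 11.7% without Aomdv1-labelled libraries 1, 2 and 3. It was 6.17% and 5.07% without WT libraries 1 and 2. Without Aovps1-labelled libraries 1, 2 and 3 it was 7.34%, 7.72% and 7.49%.

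**Figure D1:**
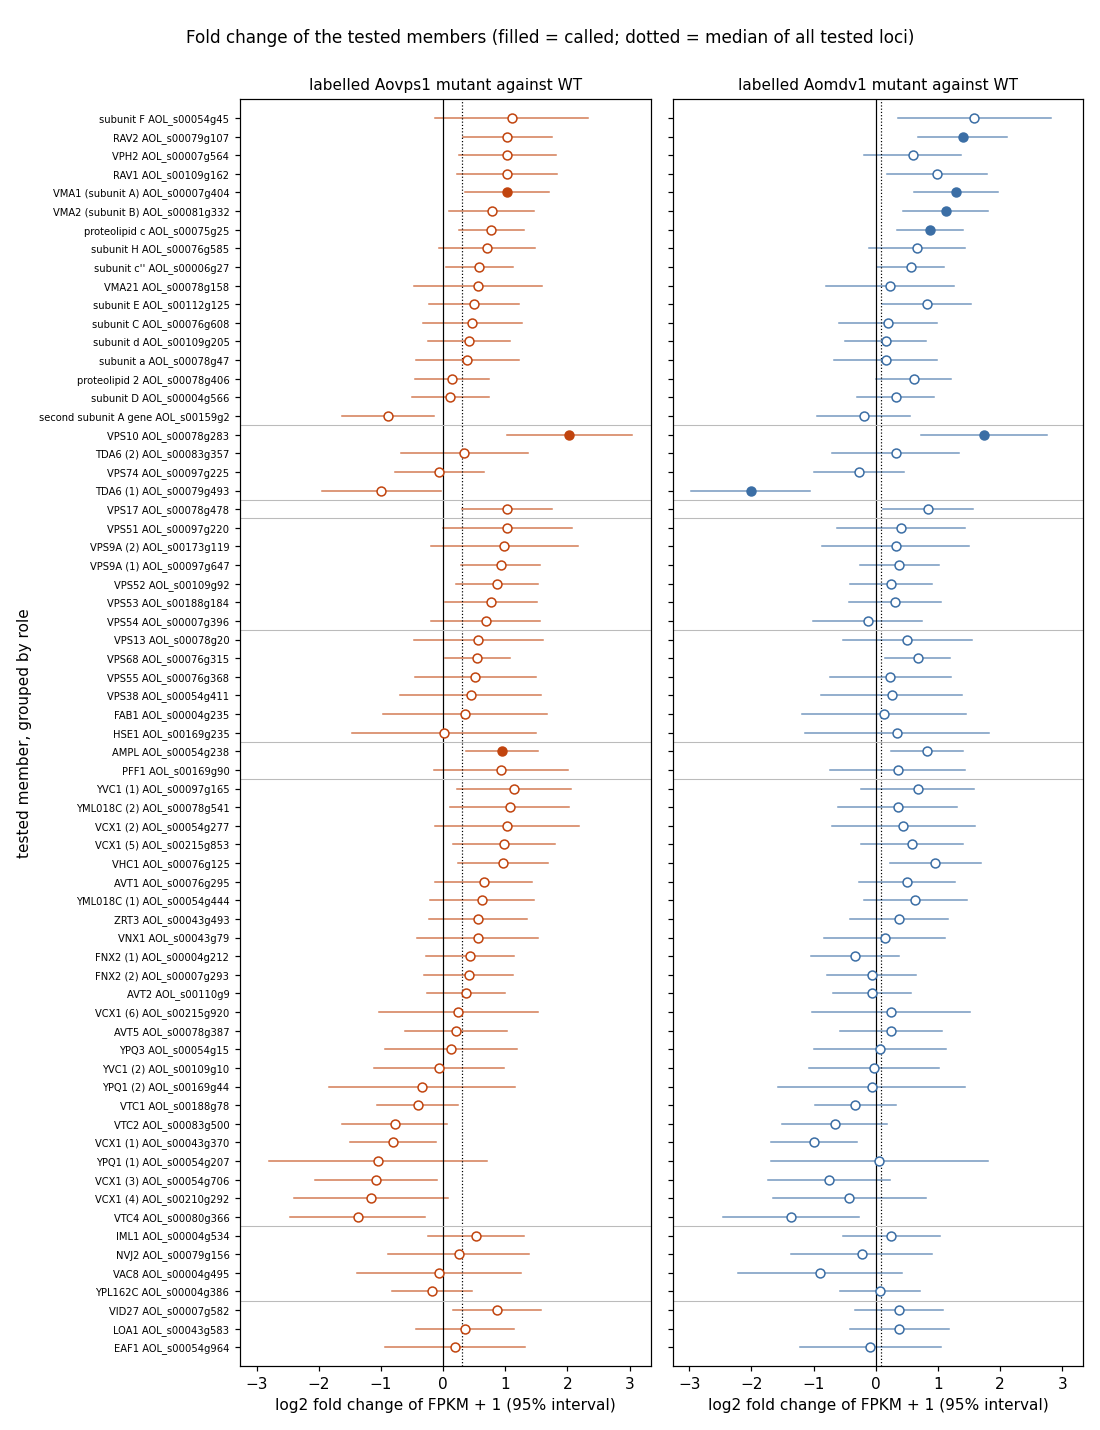
Log2 fold change of FPKM + 1 against WT (x axis) with its 95% interval for each of the 67 tested vacuolar genes (y axis, grouped by role), in the libraries labelled Aovps1 mutant (left) and Aomdv1 mutant (right). Filled points passed the threshold (3 on the left, 6 on the right), and the dotted line is the median of all tested loci, 0.30 on the left and 0.08 on the right.

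Nearly all subunit genes of the proton pump had higher means in the mutants. Of its 13 subunit genes, 8 in V1 and 5 in V0, 12 had a positive log2 fold change in each mutant, with a median of 0.50 in the Aovps1-labelled libraries and 0.61 in the Aomdv1-labelled libraries. Only 1 of the 13 was called for Aovps1 (7.7%, where 13.8% of all loci were) and 3 for Aomdv1 (23.1%, where 9.84% were), all of them higher. Positive changes were also found in 65.6% of all loci for Aovps1 and 55.0% for Aomdv1. Relative to the median of all loci, 10 of the 13 were higher for Aovps1 and 12 for Aomdv1. With median-ratio or quantile scaling the positive ones were 10 of 13 in each mutant, and with 1 library left out they were 11 to 12 for Aovps1 and 10 to 13 for Aomdv1.

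Subunit A, which binds and hydrolyses ATP, is encoded by VMA1 (AOL_s00007g404, scaffold NW_011645564.1, 1471262 to 1473506, plus strand). It stood at 141.4, 129.0 and 149.6 FPKM in the Aovps1-labelled libraries, 130.1, 184.1 and 196.2 in the Aomdv1-labelled libraries and 57.8, 55.5 and 97.7 in WT. All 6 mutant-labelled values lay above all 3 WT values, and the highest WT value was that of library 3. VMA1 rose in the Aovps1-labelled libraries (log2 fold change 1.03, 95% interval 0.36 to 1.70, adjusted p = 0.0478) and in the Aomdv1-labelled libraries (log2 fold change 1.29, 95% interval 0.62 to 1.96, adjusted p = 0.0224, limma). The Aovps1 call was lost (adjusted p in parentheses) without Aovps1-labelled libraries 1, 2 and 3 (0.154, 0.116 and 0.172), Aomdv1-labelled library 2 (0.0541) and WT libraries 1 and 2 (0.14 and 0.177), and likewise with median-ratio scaling (0.188), quantile scaling (0.0719) and a replicate block (0.0565). The Aomdv1 call was lost (adjusted p in parentheses) without Aovps1-labelled library 1 (0.0501), Aomdv1-labelled library 2 (0.0593) and WT libraries 1 and 2 (0.0923 and 0.104), and likewise with a fit of only the groups compared (0.104). VMA1 lies 47981 bp from VPS1 on the same scaffold.

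Subunit B, its non-catalytic partner in the V1 ring, is encoded by VMA2 (AOL_s00081g332, scaffold NW_011645638.1, 1142493 to 1144266, plus strand). VMA2 had 151.2, 139.1 and 146.1 FPKM in the Aovps1-labelled libraries, 149.2, 180.9 and 234.0 in the Aomdv1-labelled libraries and 73.4, 65.6 and 123.7 in WT. Every mutant-labelled library was above every WT library. VMA2 rose in the Aomdv1-labelled libraries (log2 fold change 1.13, 95% interval 0.45 to 1.81, adjusted p = 0.0448) and was not called in the Aovps1-labelled libraries (log2 fold change 0.78, 95% interval 0.10 to 1.46, adjusted p = 0.117, limma), and the difference between the mutants was -0.34 (Aovps1 minus Aomdv1, 95% interval -1.03 to 0.34). The Aomdv1 call was lost (adjusted p in parentheses) without Aovps1-labelled libraries 1, 2 and 3 (0.0866, 0.0806 and 0.0874), Aomdv1-labelled libraries 1, 2 and 3 (0.0529, 0.0794 and 0.0731) and WT libraries 1 and 2 (0.145 and 0.18), and likewise with median-ratio scaling (0.0736), quantile scaling (0.0857), a replicate block (0.0507) and a fit of only the groups compared (0.165). The ratio of A to B FPKM was 0.962 ± 0.0535 in the Aovps1-labelled libraries, 0.909 ± 0.0952 in the Aomdv1-labelled libraries and 0.808 ± 0.0329 in WT (SD, n = 3 each), with exact permutation p = 0.1 for Aovps1 and 0.2 for Aomdv1 against WT. With 3 against 3 libraries 0.1 is the smallest p this two-sided test can give.

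The other V1 subunits were not called. Subunit F (AOL_s00054g45), part of the central rotor, had 321.2, 335.8 and 303.6 FPKM in the Aovps1-labelled libraries, 334.5, 222.6 and 1200.9 in the Aomdv1-labelled libraries and 129.5, 105.0 and 239.9 in WT. Its value in Aomdv1-labelled library 3 was far above every other, whereas the Aovps1-labelled values were close together and above WT. The log2 fold change of subunit F was 1.10, adjusted p = 0.208 for Aovps1 and 1.59, adjusted p = 0.111 for Aomdv1 (limma), and without Aomdv1-labelled library 2 the Aomdv1 change was called (2.09, adjusted p = 0.0432). Its Aovps1 change was called in a fit of only the groups compared (adjusted p = 0.0373) and without Aomdv1-labelled library 3 (adjusted p = 0.0329). Subunit D (AOL_s00004g566), also of the rotor, averaged 98.3 ± 5.93 FPKM in the Aovps1-labelled libraries, 115.2 ± 25.96 in the Aomdv1-labelled libraries and 92.1 ± 21.1 in WT (SD, n = 3 each), with overlapping groups. Subunit E (AOL_s00112g125), of the peripheral stalk, averaged 290.2 ± 6.28 FPKM in the Aovps1-labelled libraries, 376.1 ± 127.2 in the Aomdv1-labelled libraries and 213.7 ± 76.6 in WT. Its groups overlapped as well, since WT library 3 reached 302.0 FPKM, and without that library subunit E was called for Aomdv1 (adjusted p = 0.0415). Subunit H (AOL_s00076g585), which regulates the coupling of V1 to V0, had 98.96, 55.1 and 83.8 FPKM in the Aovps1-labelled libraries, 59.4, 114.0 and 62.3 in the Aomdv1-labelled libraries and 54.7, 48.5 and 38.7 in WT. All mutant-labelled values of subunit H lay above WT, without a call (0.71, adjusted p = 0.2 for Aovps1 and 0.67, adjusted p = 0.295 for Aomdv1). Subunit C (AOL_s00076g608), which holds the assembled pump together, averaged 60.7 ± 5.89 FPKM in the Aovps1-labelled libraries, 52.9 ± 21.98 in the Aomdv1-labelled libraries and 44.7 ± 12.5 in WT, with overlap.

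A second gene with a subunit A hit had lower means in both mutants than in WT. AOL_s00159g2 (scaffold NW_011645716.1, 14087 to 16368, plus strand) had 11.01, 14.5 and 10.1 FPKM in the Aovps1-labelled libraries, 12.6, 23.1 and 25.7 in the Aomdv1-labelled libraries and 21.4, 23.9 and 22.7 in WT. The Aovps1-labelled values lay below all WT values, and the Aomdv1-labelled ones ranged from below to above them. Its log2 fold change was -0.89, adjusted p = 0.104 for Aovps1 and -0.20, adjusted p = 0.782 for Aomdv1, not called by limma. The Aovps1 decrease was called with median-ratio scaling (-1.23, adjusted p = 0.0485), with quantile scaling (-1.28, 0.0480), in a fit of only the groups compared (0.0340) and without Aomdv1-labelled library 3 (0.0471). Of the summed FPKM of both A genes it made up 7.89 ± 1.98% in the Aovps1-labelled libraries, 10.5 ± 1.47% in the Aomdv1-labelled libraries and 25.3 ± 5.85% in WT (SD, n = 3 each). Neither mutant overlapped WT in this share (exact permutation p = 0.1 each, the smallest possible). VMA1 is part of the sum, so its higher values lower the share even where the second gene is unchanged. The table's other protein hit for this gene names a mitochondrial ATP synthase subunit beta, and how reads shared by similar genes were counted is not given in the sources used here, so its values are uncertain.

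In the membrane sector the proteolipid c (AOL_s00075g25, scaffold NW_011645632.1, 103441 to 104514, plus strand), which forms the rotating ring that carries the protons, was the most abundant of all the vacuolar genes in WT. It stood at 637.4, 557.5 and 663.7 FPKM in the Aovps1-labelled libraries, 696.4, 750.0 and 553.0 in the Aomdv1-labelled libraries and 396.9, 344.9 and 340.8 in WT. All mutant-labelled values exceeded all WT values. The proteolipid gene rose for Aomdv1 (log2 fold change 0.88, 95% interval 0.35 to 1.40, adjusted p = 0.0441) and was not called for Aovps1 (log2 fold change 0.78, 95% interval 0.25 to 1.30, adjusted p = 0.0552, limma), where a call appeared with no filter on low values (0.0485), in a fit of only the groups compared (0.0241) and without Aomdv1-labelled library 3 (0.0191). The Aomdv1 call was lost (adjusted p in parentheses) without Aovps1-labelled libraries 1, 2 and 3 (0.0938, 0.0806 and 0.0929), Aomdv1-labelled libraries 1 and 2 (0.111 and 0.0972) and WT libraries 1, 2 and 3 (0.0903, 0.141 and 0.0547), and likewise with median-ratio scaling (0.0922), quantile scaling (0.142), a replicate block (0.0826) and a fit of only the groups compared (0.189).

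The other V0 genes were not called. Subunit c'' (AOL_s00006g27), a further ring protein, had 104.2, 103.3 and 113.9 FPKM in the Aovps1-labelled libraries, 104.9, 97.9 and 114.2 in the Aomdv1-labelled libraries and 81.04, 61.6 and 72.3 in WT. No mutant-labelled value of c'' reached down to WT (0.58, adjusted p = 0.136 for Aovps1 and 0.56, adjusted p = 0.199 for Aomdv1). A second proteolipid gene (AOL_s00078g406) averaged 157.4 ± 20.98 FPKM in the Aovps1-labelled libraries, 219.8 ± 50.04 in the Aomdv1-labelled libraries and 142.3 ± 19.6 in WT (SD, n = 3 each), where only the Aomdv1-labelled values were all above WT. Subunit d (AOL_s00109g205), which seats the rotor on the ring, averaged 102.8 ± 1.04 FPKM in the Aovps1-labelled libraries, 87.3 ± 19.6 in the Aomdv1-labelled libraries and 78.6 ± 19.9 in WT, where only the Aovps1-labelled values were all above WT. Subunit a (AOL_s00078g47), the stationary arm that holds the proton channels, averaged 63.1 ± 7.26 FPKM in the Aovps1-labelled libraries, 57.1 ± 25.7 in the Aomdv1-labelled libraries and 49.6 ± 15.2 in WT, with overlapping groups.

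The factors that build the pump also had higher means in the mutants. VPH2 and VMA21 assemble V0 in the endoplasmic reticulum of yeast, and RAV1 and RAV2 belong to the yeast RAVE complex, which rejoins V1 to V0. All 4 had positive log2 fold changes in both mutants, as had 65.6% of all loci for Aovps1 and 55.0% for Aomdv1. Their median was 1.03 for Aovps1, where that of all loci was 0.30, and 0.79 for Aomdv1, where it was 0.08. Of the 4, 0 were called for Aovps1, where 13.8% of all loci were, and 1 for Aomdv1, where 9.84% were. RAV2 (AOL_s00079g107, scaffold NW_011645636.1, 312497 to 313694, plus strand) had 36.7, 31.6 and 29.5 FPKM in the Aovps1-labelled libraries, 30.1, 41.95 and 58.6 in the Aomdv1-labelled libraries and 19.6, 13.4 and 13.7 in WT. All 6 mutant-labelled values lay above the highest WT value. RAV2 rose in the Aomdv1-labelled libraries (log2 fold change 1.40, 95% interval 0.68 to 2.12, adjusted p = 0.0215), and its Aovps1 change missed the threshold (log2 fold change 1.03, 95% interval 0.32 to 1.75, adjusted p = 0.0604, limma), although it was called in a fit of only the groups compared (0.0229) and without Aomdv1-labelled library 3 (0.0194). The Aomdv1 call was lost (adjusted p in parentheses) without Aomdv1-labelled library 2 (0.0516) and WT library 2 (0.0955), and likewise with a fit of only the groups compared (0.107). RAV1 (AOL_s00109g162) averaged 27.8 ± 4.55 FPKM in the Aovps1-labelled libraries, 28.2 ± 11.2 in the Aomdv1-labelled libraries and 13.1 ± 2.79 in WT (SD, n = 3 each), and both mutants lay above WT in every library (1.03, adjusted p = 0.0853 for Aovps1 and 0.98, adjusted p = 0.128 for Aomdv1). VPH2 (AOL_s00007g564) averaged 66.4 ± 5.66 FPKM in the Aovps1-labelled libraries, 49.3 ± 10.3 in the Aomdv1-labelled libraries and 33.97 ± 15.2 in WT, with no overlap for Aovps1 (1.03, adjusted p = 0.0779). VMA21 (AOL_s00078g158) averaged 33.7 ± 3.44 FPKM in the Aovps1-labelled libraries, 27.6 ± 9.68 in the Aomdv1-labelled libraries and 25.4 ± 14.8 in WT, with overlap in both.

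**Figure D2:**
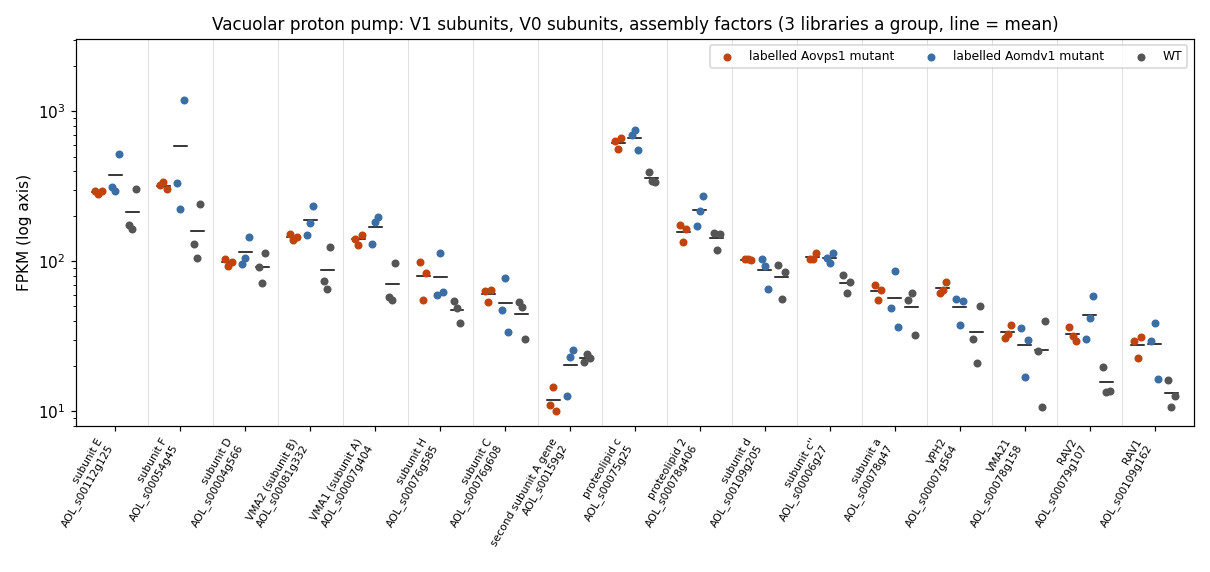
FPKM on a log axis (y) of the 8 V1 subunit genes, the 5 V0 subunit genes and the 4 assembly factors (x), with 1 point per library and a line at each group's mean, for libraries labelled Aovps1 mutant, libraries labelled Aomdv1 mutant and WT. Subunit F reaches 1200.9 FPKM in 1 Aomdv1-labelled library, and the second subunit A gene is the only subunit gene whose mutant means are both below WT.

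Summed over the 13 subunit genes, the pump took 2273.1, 2056.2 and 2258.5 FPKM in the Aovps1-labelled libraries, 2266.0, 2443.8 and 3461.2 in the Aomdv1-labelled libraries and 1438.7, 1228.6 and 1651.0 in WT. As a share of all FPKM this was 0.198 ± 0.0122% in the Aovps1-labelled libraries, 0.223 ± 0.0253% in the Aomdv1-labelled libraries and 0.125 ± 0.0147% in WT (SD, n = 3 each), and neither mutant overlapped WT (exact permutation p = 0.1 each, the smallest possible). The ratio of summed V1 to summed V0 was 1.09 ± 0.0599 for Aovps1, 1.44 ± 0.771 for Aomdv1 and 1.06 ± 0.317 for WT (SD, n = 3 each; exact permutation p = 1 for Aovps1 and 0.5 for Aomdv1, each against WT). The high Aomdv1-labelled ratio came from library 3, at 2.33, and stood at 1.17 there without subunit F.

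Among the sorting genes the receptor VPS10 had the largest difference of all 67 genes for Aovps1 and the largest increase for Aomdv1. In yeast Vps10 binds vacuolar hydrolases such as carboxypeptidase Y in the late Golgi and carries them to endosomes. The gene (AOL_s00078g283, scaffold NW_011645635.1, 903668 to 908606, minus strand) had 140.5, 90.8 and 159.9 FPKM in the Aovps1-labelled libraries, 126.7, 180.1 and 48.3 in the Aomdv1-labelled libraries and 35.7, 29.6 and 26.2 in WT. Every mutant-labelled library was above every WT library, and the lowest of them was Aomdv1-labelled library 3. VPS10 rose in the Aovps1-labelled libraries (log2 fold change 2.03, 95% interval 1.02 to 3.04, adjusted p = 0.0153) and in the Aomdv1-labelled libraries (log2 fold change 1.74, 95% interval 0.73 to 2.75, adjusted p = 0.0377, limma), to 4.28 and 3.88 times the WT mean. The Aovps1 call was lost (adjusted p in parentheses) without Aovps1-labelled libraries 1 and 3 (0.0675 and 0.0764) and WT library 2 (0.0665). The Aomdv1 call was lost (adjusted p in parentheses) without Aovps1-labelled libraries 1, 2 and 3 (0.0667, 0.0526 and 0.0605), Aomdv1-labelled libraries 1 and 2 (0.112 and 0.0956) and WT libraries 1, 2 and 3 (0.0833, 0.128 and 0.0737), and likewise with no filter (0.0501), median-ratio scaling (0.0531), a replicate block (0.0518) and a fit of only the groups compared (0.102). Without Aomdv1-labelled library 3 the adjusted p was 0.0012 for Aovps1 and 0.00167 for Aomdv1.

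TDA6-like genes carry a VPS62 domain, and their role is not settled. One of them (AOL_s00079g493, scaffold NW_011645636.1, 1634520 to 1635682, minus strand) was weakly expressed, at 3.50, 4.87 and 2.48 FPKM in the Aovps1-labelled libraries, 1.93, 0.62 and 1.33 in the Aomdv1-labelled libraries and 7.10, 4.59 and 15.03 in WT. The Aomdv1-labelled values were all below the lowest WT value and rested on an estimated 12.3 to 38.8 fragments each, and the Aovps1-labelled values overlapped WT. Its level fell in the Aomdv1-labelled libraries (log2 fold change -2.01, 95% interval -2.97 to -1.06, adjusted p = 0.0144) and was not called for Aovps1 (-0.99, adjusted p = 0.15, limma). The Aomdv1 call was lost (adjusted p in parentheses) without Aomdv1-labelled library 2 (0.052), and likewise with a fit of only the groups compared (0.0515). The other TDA6-like gene (AOL_s00083g357) averaged 103.4 ± 10.8 FPKM in the Aovps1-labelled libraries, 122.4 ± 88.7 in the Aomdv1-labelled libraries and 81.3 ± 4.72 in WT (SD, n = 3 each), not called. VPS74 (AOL_s00097g225), which in yeast keeps glycosyltransferases in the Golgi, averaged 126.5 ± 7.14 FPKM in the Aovps1-labelled libraries, 115.6 ± 43.7 in the Aomdv1-labelled libraries and 132.4 ± 16.4 in WT, and all groups overlapped.

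The retromer is the coat that returns Vps10 from endosomes. Its sorting nexin VPS17 (AOL_s00078g478) had 77.00, 65.7 and 77.7 FPKM in the Aovps1-labelled libraries, 56.8, 94.9 and 48.5 in the Aomdv1-labelled libraries and 46.1, 34.3 and 27.8 in WT. All mutant-labelled values exceeded WT. VPS17 was not called for Aovps1 (log2 fold change 1.03, 95% interval 0.31 to 1.76, adjusted p = 0.0625) or Aomdv1 (log2 fold change 0.84, 95% interval 0.11 to 1.56, adjusted p = 0.151, limma), and the Aovps1 change was called in a fit of only the groups compared (0.0224) and without Aomdv1-labelled library 2 (0.0398) or 3 (0.0261).

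The GARP complex tethers vesicles that return from endosomes to the Golgi. Its 4 subunits all had positive log2 fold changes for Aovps1, 0.68 to 1.03 with a median of 0.82, and for Aomdv1 3 of 4 did, with a median of 0.28 that was 0.11 without Aomdv1-labelled library 1 and 0.45 without Aomdv1-labelled library 3. None of the 4 was called by limma in either mutant. At an unadjusted p under 0.05 there were 3 for Aovps1 and 0 for Aomdv1, where 30.5% of all loci were for Aovps1 and 22.8% for Aomdv1. VPS51 (AOL_s00097g220) had 20.97, 20.1 and 24.8 FPKM in the Aovps1-labelled libraries, 20.6, 20.8 and 5.85 in the Aomdv1-labelled libraries and 13.9, 7.31 and 10.3 in WT. Its Aovps1-labelled values lay above WT, and its value in Aomdv1-labelled library 3 was below WT (1.03, adjusted p = 0.163 for Aovps1 and 0.40, adjusted p = 0.674 for Aomdv1). VPS52 (AOL_s00109g92) averaged 34.02 ± 2.52 FPKM in the Aovps1-labelled libraries, 21.98 ± 4.62 in the Aomdv1-labelled libraries and 18.5 ± 4.33 in WT (SD, n = 3 each). VPS53 (AOL_s00188g184) averaged 36.7 ± 3.08 FPKM in the Aovps1-labelled libraries, 26.95 ± 6.46 in the Aomdv1-labelled libraries and 21.9 ± 7.65 in WT. Both were above WT in all Aovps1-labelled libraries and overlapped it in the Aomdv1-labelled ones. VPS54 (AOL_s00007g396) averaged 16.5 ± 4.23 FPKM in the Aovps1-labelled libraries, 9.37 ± 4.16 in the Aomdv1-labelled libraries and 9.86 ± 2.64 in WT, with overlap, and lies 3706 bp from VPS1.

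VPS9-like proteins activate the Rab5 GTPase on endosomes, and both of the genes had higher means in the Aovps1-labelled libraries than in the others. AOL_s00097g647 had 51.9, 51.2 and 49.04 FPKM in the Aovps1-labelled libraries, 39.2, 40.01 and 25.9 in the Aomdv1-labelled libraries and 24.4, 23.2 and 31.7 in WT. The Aovps1-labelled values were within a narrow range above WT and above the Aomdv1-labelled values. The change missed the threshold for Aovps1 (log2 fold change 0.93, 95% interval 0.29 to 1.56, adjusted p = 0.0574) and for Aomdv1 (0.38, adjusted p = 0.492, limma), and it was called for Aovps1 in a fit of only the groups compared (0.0222), without WT library 3 (0.0304) and without Aomdv1-labelled library 3 (0.0160). AOL_s00173g119 averaged 34.5 ± 5.46 FPKM in the Aovps1-labelled libraries, 25.8 ± 16.00 in the Aomdv1-labelled libraries and 17.2 ± 5.16 in WT (SD, n = 3 each), without a call. Over the 6 tethering and fusion genes the log2 difference between the mutants (Aovps1 minus Aomdv1) was positive for all 6, with a median of 0.63 where that of all loci was 0.16, and none of the 6 differences was called. Without Aomdv1-labelled library 3 that median was 0.30, where that of all loci was 0.11, and 5 of the 6 were positive.

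**Figure D3:**
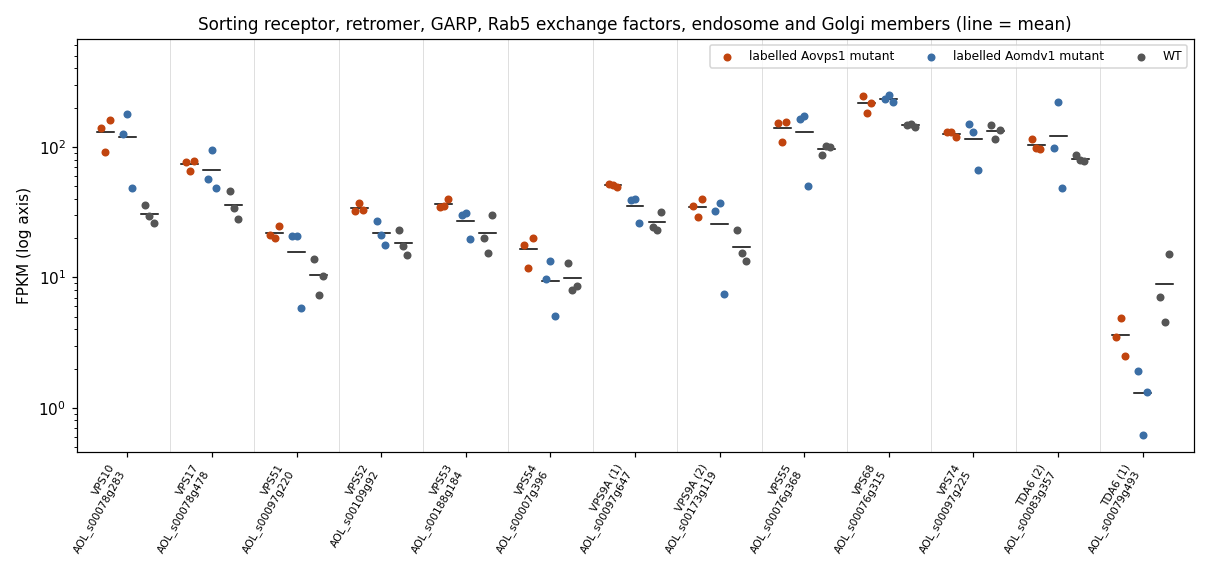
FPKM on a log axis (y) of 13 sorting genes (x), with 1 point per library and a line at each group's mean, for libraries labelled Aovps1 mutant, libraries labelled Aomdv1 mutant and WT. VPS10 separates both mutants from WT, and the first TDA6-like gene falls to between 0.62 and 1.93 FPKM in the Aomdv1-labelled libraries.

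The 6 endosome genes had positive log2 fold changes in both mutants, as had 65.6% of all loci for Aovps1 and 55.0% for Aomdv1. Their medians were 0.48 for Aovps1 and 0.30 for Aomdv1, where those of all loci were 0.30 and 0.08. None was called, where 13.8% of all loci were for Aovps1 and 9.84% for Aomdv1. At an unadjusted p under 0.05 there was 1 in each comparison, where 30.5% of all loci were for Aovps1 and 22.8% for Aomdv1. The positive directions rested on single libraries. Without WT library 3 there were 3 of 6 positive in each mutant, with medians of 0.11 for Aovps1 and 0.08 for Aomdv1, and without Aomdv1-labelled library 2 there were 2 of 6 for Aomdv1, with a median of -0.15. VPS68 (AOL_s00076g315), which with VPS55 acts in traffic from endosomes to the yeast vacuole, had 248.0, 181.7 and 218.9 FPKM in the Aovps1-labelled libraries, 234.1, 249.8 and 221.3 in the Aomdv1-labelled libraries and 147.4, 149.9 and 142.4 in WT. Its WT values were nearly equal and below all mutant-labelled values (0.55, adjusted p = 0.148 for Aovps1 and 0.68, adjusted p = 0.11 for Aomdv1). VPS55 (AOL_s00076g368) averaged 139.0 ± 25.9 FPKM in the Aovps1-labelled libraries, 129.2 ± 68.2 in the Aomdv1-labelled libraries and 95.98 ± 8.33 in WT (SD, n = 3 each), with Aovps1-labelled values above WT and Aomdv1-labelled ones overlapping it. The others were VPS13, a lipid transfer protein of membrane contacts, VPS38, of the kinase complex that makes phosphatidylinositol 3-phosphate on endosomes, FAB1, the kinase that phosphorylates that lipid further, and HSE1, a ubiquitin-binding ESCRT protein. Their groups overlapped in both comparisons, and the log2 fold changes of the 6 ran from 0.01 to 0.57 for Aovps1 and from 0.13 to 0.68 for Aomdv1. HSE1 (AOL_s00169g235) had the widest spread of the 67 genes among the Aomdv1-labelled libraries, at 11.2, 64.6 and 8.15 FPKM.

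Of the pair of proteases, AMPL was called. AMPL (AOL_s00054g238, scaffold NW_011645611.1, 735240 to 737281, minus strand) is similar to yeast aminopeptidase I, a vacuolar enzyme that reaches the vacuole directly from the cytoplasm and not through the Golgi. It had 101.4, 85.2 and 99.3 FPKM in the Aovps1-labelled libraries, 89.6, 100.5 and 73.3 in the Aomdv1-labelled libraries and 52.8, 40.7 and 54.1 in WT. All mutant-labelled values lay above WT, and the groups were tight. AMPL rose in the Aovps1-labelled libraries (log2 fold change 0.95, 95% interval 0.37 to 1.53, adjusted p = 0.0386) and missed the threshold in the Aomdv1-labelled libraries (log2 fold change 0.82, 95% interval 0.24 to 1.40, adjusted p = 0.0803, limma), where it was called without Aomdv1-labelled library 3 (0.0351). The Aovps1 call was lost (adjusted p in parentheses) without Aovps1-labelled libraries 1, 2 and 3 (0.156, 0.0944 and 0.154), Aomdv1-labelled library 1 (0.0511) and WT libraries 1 and 2 (0.0786 and 0.145), and likewise with median-ratio scaling (0.147), quantile scaling (0.0747) and a replicate block (0.0733). PFF1 (AOL_s00169g90), a membrane protease gene, averaged 21.6 ± 3.41 FPKM in the Aovps1-labelled libraries, 15.9 ± 9.99 in the Aomdv1-labelled libraries and 11.7 ± 5.29 in WT (SD, n = 3 each), not called.

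None of the 24 tested transporter genes was called by limma in either comparison, and their medians (0.31 for Aovps1 and 0.06 for Aomdv1) were close to those of all loci. The Aomdv1 median was -0.15 without WT library 3 and 0.25 without Aomdv1-labelled library 3. At an unadjusted p under 0.05 there were 7 of 24 for Aovps1, near the 30.5% of all loci, and 3 of 24 for Aomdv1, below the 22.8% of all loci. They included subgroups of opposite direction. Lower in the mutants by their means were the 3 genes of the VTC complex, which makes polyphosphate in the vacuolar membrane, all with negative log2 fold changes in both mutants and under each scaling.

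VTC4 (AOL_s00080g366, scaffold NW_011645637.1, 1291429 to 1294153, plus strand), the catalytic subunit, had 36.1, 28.8 and 32.7 FPKM in the Aovps1-labelled libraries, 46.7, 53.1 and 13.8 in the Aomdv1-labelled libraries and 58.2, 85.9 and 125.2 in WT. Every mutant-labelled value lay below every WT value. VTC4 was not called for Aovps1 (log2 fold change -1.37, 95% interval -2.46 to -0.29, adjusted p = 0.0894) or Aomdv1 (log2 fold change -1.36, 95% interval -2.45 to -0.28, adjusted p = 0.119, limma). With median-ratio scaling the Aovps1 decrease was called (-1.73, adjusted p = 0.0374), as it was with quantile scaling (-1.68, 0.0208), in a fit of only the groups compared (0.0160) and without Aomdv1-labelled library 3 (0.0100), and the Aomdv1 decrease was called with quantile scaling (-1.45, 0.0480). VTC2 (AOL_s00083g500), a regulatory subunit, averaged 87.3 ± 2.11 FPKM in the Aovps1-labelled libraries, 97.6 ± 28.2 in the Aomdv1-labelled libraries and 162.1 ± 69.2 in WT (SD, n = 3 each). VTC1 (AOL_s00188g78), a small membrane subunit and the most abundant transporter gene, averaged 230.0 ± 30.4 FPKM in the Aovps1-labelled libraries, 242.4 ± 35.2 in the Aomdv1-labelled libraries and 314.3 ± 101.4 in WT. In both genes WT library 3 was the lowest WT library and overlapped the mutants.

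The calcium genes divided evenly, 4 with positive and 4 with negative log2 fold changes in each mutant, and 0 were called. Of all loci 13.8% were called for Aovps1 and 9.84% for Aomdv1. At an unadjusted p under 0.05 there were 4 of 8 for Aovps1 and 1 of 8 for Aomdv1. For all loci the shares were 30.5% for Aovps1 and 22.8% for Aomdv1. With median-ratio or quantile scaling 1 was called as fallen in each mutant, when 10.1 to 13.2% of all loci were called. For Aovps1, 1 rose and 3 fell with only the groups compared (24.6% of all loci called) and without Aomdv1-labelled library 3 (25.3%). Without WT library 3, 1 rose for Aovps1 (21.1%) and 1 for Aomdv1 (13.8%). Without Aomdv1-labelled library 2, 1 fell for Aomdv1 (8.53%). VCX1-like proteins exchange calcium for protons across the vacuolar membrane, and 6 genes had such hits. AOL_s00043g370 had 21.9, 20.1 and 16.5 FPKM in the Aovps1-labelled libraries, 14.95, 24.5 and 12.96 in the Aomdv1-labelled libraries and 33.1, 36.6 and 33.9 in WT. Its mutant-labelled values were all below WT (-0.80, adjusted p = 0.114 for Aovps1 and -0.99, adjusted p = 0.0773 for Aomdv1). AOL_s00054g706 averaged 61.6 ± 14.8 FPKM in the Aovps1-labelled libraries, 85.4 ± 48.00 in the Aomdv1-labelled libraries and 134.3 ± 42.7 in WT (SD, n = 3 each), and AOL_s00210g292 averaged 64.9 ± 6.98 FPKM in the Aovps1-labelled libraries, 138.8 ± 108.5 in the Aomdv1-labelled libraries and 150.5 ± 48.2 in WT. In both of these the Aovps1-labelled values lay below WT and the Aomdv1-labelled values spread across it. The other VCX1-like genes, AOL_s00054g277, AOL_s00215g853 and AOL_s00215g920, had overlapping groups. Of the YVC1-like channel genes, which release calcium from the yeast vacuole, AOL_s00097g165 averaged 21.5 ± 6.36 FPKM in the Aovps1-labelled libraries, 16.2 ± 9.01 in the Aomdv1-labelled libraries and 8.95 ± 1.26 in WT, with all Aovps1-labelled values above WT. Its Pfam and KEGG entries name other enzymes, so that annotation is uncertain.

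VHC1 (AOL_s00076g125), a cotransporter of potassium and chloride, had 27.3, 20.6 and 24.6 FPKM in the Aovps1-labelled libraries, 17.99, 36.8 and 20.6 in the Aomdv1-labelled libraries and 11.5, 11.7 and 12.3 in WT. WT values were nearly equal and all mutant-labelled values were higher, without a call (0.96, adjusted p = 0.0798 for Aovps1 and 0.96, adjusted p = 0.105 for Aomdv1). The zinc exporter ZRT3 (AOL_s00043g493) and the sodium and potassium exchanger VNX1 (AOL_s00043g79) overlapped between groups. The 8 tested amino acid transporters, of the AVT, YPQ and FNX2 families, had log2 fold changes of -1.04 to 0.65 for Aovps1 and -0.34 to 0.50 for Aomdv1. FNX2-like AOL_s00004g212 had 15.1, 18.4 and 15.8 FPKM in the Aovps1-labelled libraries, 11.6, 7.36 and 9.14 in the Aomdv1-labelled libraries and 12.9, 8.77 and 14.9 in WT. Its Aovps1-labelled values were just above WT and above all Aomdv1-labelled values. A pair of YML018C-like carriers of unknown substrate had log2 fold changes of 0.62 and 1.07 for Aovps1 and 0.64 and 0.35 for Aomdv1. YPQ1-like AOL_s00054g207 spread widely within WT, at 183.8, 195.9 and 18.9 FPKM.

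**Figure D4:**
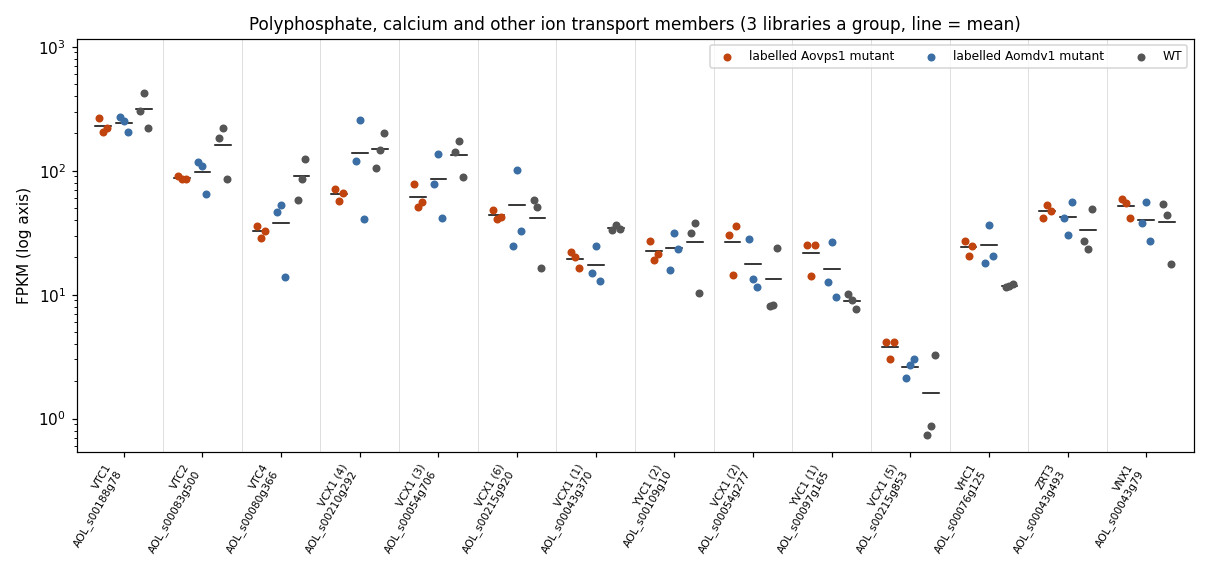
FPKM on a log axis (y) of the 3 VTC genes, the 8 calcium transport genes and 3 further ion transporters (x), with 1 point per library and a line at each group's mean, for libraries labelled Aovps1 mutant, libraries labelled Aomdv1 mutant and WT. VTC4 and the VCX1-like gene AOL_s00043g370 lie below WT in all 6 mutant-labelled libraries, and VHC1 lies above it.

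The 4 genes of the vacuolar membrane and its inheritance were not called. VAC8 (AOL_s00004g495), an armadillo protein that in yeast links vacuoles to the cytoskeleton and nucleus, had 93.2, 97.7 and 97.8 FPKM in the Aovps1-labelled libraries, 90.6, 102.0 and 16.1 in the Aomdv1-labelled libraries and 128.4, 111.4 and 71.4 in WT. Only Aomdv1-labelled library 3 stood far below the rest. IML1 (AOL_s00004g534), a negative regulator of TORC1 at the yeast vacuole, averaged 8.36 ± 0.82 FPKM in the Aovps1-labelled libraries, 7.02 ± 2.70 in the Aomdv1-labelled libraries and 5.61 ± 1.58 in WT (SD, n = 3 each), with all Aovps1-labelled values above WT. NVJ2, of the junction between nucleus and vacuole, and the YPL162C-like gene overlapped between groups. The 4 ran from -0.18 to 0.53 for Aovps1 and from -0.90 to 0.25 for Aomdv1 on the log2 scale.

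The last genes share the word vacuole more than a common role. VID27 (AOL_s00007g582), named for vacuolar import and degradation, had 43.1, 37.8 and 43.1 FPKM in the Aovps1-labelled libraries, 30.5, 38.9 and 20.7 in the Aomdv1-labelled libraries and 24.3, 26.4 and 17.1 in WT. Its Aovps1-labelled values were above WT and the Aomdv1-labelled ones overlapped it (0.86, adjusted p = 0.0987 for Aovps1 and 0.37, adjusted p = 0.55 for Aomdv1). The Aovps1 change was called in a fit of only the groups compared (0.0389) and without Aomdv1-labelled library 3 (0.0333). LOA1 (AOL_s00043g583, an acyltransferase) averaged 40.2 ± 2.19 FPKM in the Aovps1-labelled libraries, 43.5 ± 17.9 in the Aomdv1-labelled libraries and 32.2 ± 10.2 in WT (SD, n = 3 each), and EAF1, a chromatin protein, entered like LOA1 through an alternative name. Both overlapped between groups.

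3 of the 70 genes did not reach an FPKM of 1 in 3 libraries and were not tested. FNX2-like AOL_s00007g297 was listed at 0 in all 3 Aovps1-labelled libraries, at 0.03, 0 and 0 FPKM in the Aomdv1-labelled libraries and at 0.54, 0.39 and 3.53 in WT. All WT values exceeded all mutant-labelled values, at an estimated 14.7 to 127.7 fragments in WT. The VPS1-like gene AOL_s00078g426 stood at 0.15, 0.17 and 0.12 FPKM in the Aovps1-labelled libraries, 0.21, 0.11 and 0.03 in the Aomdv1-labelled libraries and 0.67, 0.25 and 0.29 in WT, at 1.3 to 33.5 estimated fragments. The other VPS1-like gene, AOL_s00006g441, was listed at 0 in all libraries but 1, WT library 3 with 0.03.

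No vacuolar gene was called between the mutants. Between the Aovps1-labelled and Aomdv1-labelled libraries 0 of 67 genes were called in either direction, as were 0% of all tested loci that were higher and 0% that were lower (limma). At an unadjusted p under 0.05 there were 2 of the 67, TDA6-like AOL_s00079g493 (log2 difference 1.02, 95% interval 0.06 to 1.97, adjusted p = 0.523) and FNX2-like AOL_s00004g212 (0.77, 0.06 to 1.47, adjusted p = 0.521), 2.99% of them against 9.48% of all loci. For VPS10 the difference was 0.29 with an interval of -0.72 to 1.30, and for VMA1 it was -0.26 with -0.93 to 0.41. Both comparisons with WT share the same 3 WT libraries.

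The genes that were left out by their KEGG maps hold further parts of the pathway. Of 44 tested, 13 rose and 1 fell in the Aovps1-labelled libraries (31.8%, where 13.8% of all loci were called). In the Aomdv1-labelled libraries 6 rose and 1 fell (15.9%, where 9.84% were called). Their median log2 fold change was 0.83 for Aovps1, where that of all loci was 0.30, and 0.54 for Aomdv1, where it was 0.08. With median-ratio scaling 5 rose and 1 fell for Aovps1, when 12.4% of all loci were called. For Aomdv1 4 rose and 1 fell, when 10.1% were. For Aovps1 0 rose without WT library 2 or Aovps1-labelled library 3, 1 without Aovps1-labelled library 1, 3 without WT library 1, 5 without Aovps1-labelled library 2 and 20 without Aomdv1-labelled library 3. Of all loci 5.77 to 8.26% were called for Aovps1 in these fits, apart from 25.3% without Aomdv1-labelled library 3. For Aomdv1 0 rose without WT library 2, 3 without WT library 1 or Aomdv1-labelled library 1, and 12 without Aomdv1-labelled library 3. The all-loci share was then 5.07% without WT library 2 and 6.17% without WT library 1. It was 8.02% without Aomdv1-labelled library 1 and 11.7% without Aomdv1-labelled library 3. The 44 included the cargo-binding retromer genes VPS26 (AOL_s00076g674), at means of 134.2 FPKM in the Aovps1-labelled libraries, 140.1 in the Aomdv1-labelled libraries and 55.7 in WT, and VPS29 (AOL_s00188g89), at means of 139.8 FPKM in the Aovps1-labelled libraries, 200.7 in the Aomdv1-labelled libraries and 63.2 in WT. Both rose in both mutants (VPS26 adjusted p = 0.0156 for Aovps1 and 0.0152 for Aomdv1; VPS29 adjusted p = 0.0368 for Aovps1 and 0.00917 for Aomdv1, limma). VPS5 (AOL_s00083g207), the partner of VPS17, rose for Aovps1 (log2 fold change 1.08, adjusted p = 0.0415). So did genes of the HOPS and CORVET tethers, among them VPS33 (AOL_s00078g88, 1.11, adjusted p = 0.0365) and VPS8 (AOL_s00078g96, 1.35, adjusted p = 0.0364). Of 16 tested SNARE map genes 1 rose for Aovps1, VAM7 (AOL_s00076g707, a vacuolar fusion SNARE that is also among the 44), and 0 for Aomdv1, where 3 had an unadjusted p under 0.05. The share called was 6.2% for Aovps1, below the 13.8% of all loci. For Aomdv1 9.84% of all loci were called and 22.8% had an unadjusted p under 0.05.

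The calls differed in how many of their 15 or 16 alternatives kept them. The TDA6-like AOL_s00079g493 lost its Aomdv1 call under 2, VPS10 (AOL_s00078g283) its Aovps1 call and RAV2 (AOL_s00079g107) its Aomdv1 call under 3 each, and VMA1 (AOL_s00007g404) its Aomdv1 call under 5. VMA1 and AMPL (AOL_s00054g238) lost their Aovps1 calls under 9 each. The Aomdv1 calls of VMA2 (AOL_s00081g332), the proteolipid c (AOL_s00075g25) and VPS10 were lost under 12 each. No log2 fold change of these calls changed sign.

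**Figure D5:**
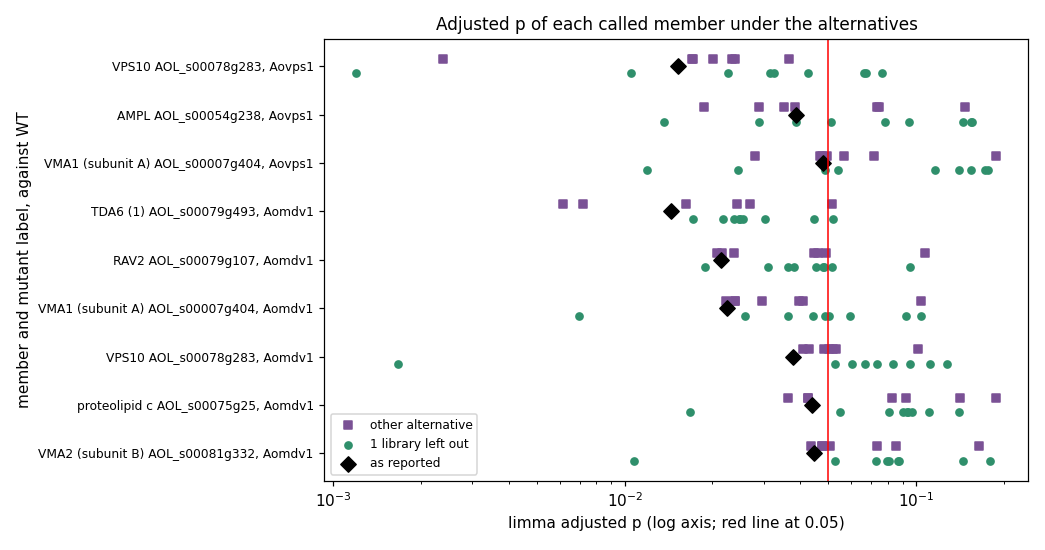
Limma adjusted p on a log axis (x) of each gene called against WT (y, with its mutant label), as reported (diamonds), under other settings (squares) and with 1 library left out (circles), with the threshold of 0.05 as a red line. Each of the 9 calls crosses the threshold under at least 1 alternative, and TDA6-like AOL_s00079g493 crosses it in the fewest.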

How the data were processed

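The authors deposited one table of FPKM values per gene and library, rounded to 2 decimals, with annotation columns. How reads were aligned and counted, with or without strand, is a step not given in the sources used here. The table's coordinates equal those of the RefSeq assembly of the species (AOL24927 1.0) for all 70 genes, and it holds 0 columns of other samples. Depth was inferred from the smallest steps between low values, of which 66.8 to 69.4% lay within 0.1 of a whole fragment, a share too low to recover counts.

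From these values log2(FPKM + 1) was computed, a locus needed 3 libraries with an FPKM of 1 or above (10318 did), and the 9 libraries entered a single linear model without a replicate term (limma 3.58.1, trend option, two-sided moderated test; R 4.3.3). P-values were adjusted by the Benjamini-Hochberg method over every tested locus and called under 0.05. A fold change on this scale understates that of low genes. The fit was tested on simulated data with 200 changed genes. The ratios and shares of pump genes were compared by exact permutation tests.

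Named genes are those past the threshold, all pump subunits, the most abundant and the most changed gene of each of 9 roles, and the targeted genes. Others were named after their values were seen. Roles were assigned by hand from the protein hits. The genes and lists were chosen with earlier results of these data known.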

Additional observations from a re-analysis of the deposited data

How the results depend on the processing

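Counts of called vacuolar genes depended on the libraries and the model more than on the filter or the pseudocount. For Aovps1 the count of 3 became 20 (15 risen, 5 fallen) in a fit of only the groups compared, where 24.6% of all loci were called, and ranged from 0 to 21 when 1 library was left out. The all-loci share ranged from 5.77 to 25.3% over those left-out fits. For Aomdv1 the count of 6 became 0 in a fit of only the groups compared, where 5.3% of all loci were called, and ranged from 1 to 7 when 1 library was left out. There the all-loci share ranged from 5.07 to 13.8%. With a pseudocount of 0.1, no filter or a mean FPKM of 5 or more the counts were 3 to 4 for Aovps1 and 5 to 6 for Aomdv1. TDA6-like AOL_s00079g493 could not be tested at a mean FPKM of 5 or more. Scaling changed direction more than total. For Aovps1, 3 risen and 0 fallen became 1 risen and 3 fallen under either scaling. VMA1 and AMPL lost that call, and VTC4, the second subunit A gene and 1 calcium gene were called as fallen. For Aomdv1, 5 risen and 1 fallen became 2 and 2 with median ratios and 3 and 3 with quantile scaling. Between the mutants the count was 0 under all of these settings. Of the 10 called results, VPS1 included, 75 of 159 alternative values missed the threshold and 0 reversed. Of the 77 results that were not called, 14 passed the threshold under 1 or more alternatives, in 30 of 1230 alternative values.

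The replicate block left 1 call for Aovps1, where 11.4% of all loci were called, and 3 for Aomdv1, where 8.66% were. Deviations from the group means correlated at -0.283 to 0.387 for same-numbered libraries and at -0.275 to 0.278 for differently numbered ones. For libraries 1, 2 and 3 of WT and Aomdv1 the values were -0.009, 0.387 and 0.155. They were -0.005, 0.064 and 0.236 for WT and Aovps1, and -0.034, -0.283 and -0.248 between the mutants. With 3 libraries a group such deviations depend on each other, so these values cannot decide whether the numbers pair the libraries. Where a left-out library leaves 2 in its group, the model lends the spread of the others. FPKM values without counts give no counting error.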

Other observations

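Genes with the vacuole in their GO text that are not among the 70, nor on the KEGG or SNARE lists above, numbered 199, of which 186 were tested. The GO text of 1292 loci read as removed and could not be searched. In the Aovps1-labelled libraries 25 rose and 7 fell (17.2%, where 13.8% of all loci were called), and in the Aomdv1-labelled libraries 14 rose and 6 fell (10.8%, where 9.84% were called). The targeted gene VPS1 (AOL_s00007g394) is on this list and is among the 7 that fell for Aovps1. These counts moved with single libraries. For Aovps1 6 rose when WT library 2 or Aovps1-labelled library 1 or 3 was left out, 8 without Aovps1-labelled library 2 and 9 without WT library 1, whereas 51 did without Aomdv1-labelled library 3 and 54 in a fit of only the groups compared. Of all loci 5.77 to 8.26% were called in these fits without a WT or Aovps1-labelled library. The share was 25.3% without Aomdv1-labelled library 3 and 24.6% with only the groups compared. For Aomdv1 6 rose without WT library 2, 27 without Aomdv1-labelled library 3 and 8 in a fit of only the groups compared. The all-loci shares in these fits were 5.07%, 11.7% and 5.3%. With median-ratio scaling the counts were 10 risen and 13 fallen for Aovps1 and 13 risen and 6 fallen for Aomdv1. The autophagy conjugation gene ATG3 (AOL_s00078g458) averaged 104.2 FPKM in the Aovps1-labelled libraries, 109.4 in the Aomdv1-labelled libraries and 29.4 in WT (log2 fold change 1.83, adjusted p = 0.00197 for Aovps1 and 1.90, adjusted p = 0.00165 for Aomdv1, limma). ATG7 (AOL_s00112g75), the activating enzyme of the same conjugation pathway, rose for Aovps1 (1.36, adjusted p = 0.0263). SEC18 (AOL_s00117g44), the ATPase that recycles SNARE proteins, rose for Aovps1 (1.12, adjusted p = 0.029). A MUP1-like methionine permease gene (AOL_s00007g56) averaged 0.31 FPKM in the Aovps1-labelled libraries, 0.73 in the Aomdv1-labelled libraries and 58.2 in WT, and fell in both (adjusted p = 5.14e-06 for Aovps1 and 6.27e-06 for Aomdv1). An RNY1-like vacuolar ribonuclease gene (AOL_s00078g542) fell in both mutants (log2 fold change -2.04, adjusted p = 0.0437 for Aovps1 and -2.21, adjusted p = 0.039 for Aomdv1). These genes were picked after their values were seen.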
